A study of Homo sapiens with 4 samples.

Results

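CDX1, CDX2 and CDX4, the caudal-type homeobox genes, were examined in a map of GATA3 binding in human embryonic stem cells treated with BMP4. For each gene, the positions of both GATA3 ChIP-seq replicates were taken that lay in the gene body or within 100 kb of its 5′ end on hg38, or that carried the gene's symbol in the deposited lists. The 3 genes were 3 of 20033 protein-coding genes, and they held 5 of the 18456 chromosomal positions of replicate 1 and 4 of the 12782 of replicate 2. Where the replicates listed positions at most 100 bp apart, these were linked into a shared region. Of the 9145 shared regions in the genome, 2 met the rule, and both belonged to CDX2.

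The cells were of H1, an established human embryonic stem cell line, grown in mTeSR1 medium on Matrigel. All 4 samples of the series, 2 GATA3 ChIP replicates and 2 input chromatin samples, had received BMP4 at 50 ng/ml for 6 h. GATA3 ChIP from untreated cells was not analysed here, so a position states where GATA3 was found after BMP4 and not whether the site was gained. Each deposited list gave 1 base per peak, with no height, width or q-value, and read depth could not be derived from the lists.

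Caudal genes encode homeodomain transcription factors that pattern the posterior body axis, in part by activating HOX genes, and their own transcription responds to WNT, FGF, retinoic acid and BMP signals. CDX1 and CDX2 also maintain the identity of the intestinal epithelium, and CDX2 is a transcription factor of the trophectoderm, the outer layer of the blastocyst, where GATA3 is also active. CDX2 lies beside PDX1 and GSX1 in the ParaHox cluster, whereas CDX1 and CDX4 have separate loci.

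The sequences around CDX2 are shown first because they hold the GATA sites nearest to the GATA3 positions, followed by the promoter of CDX4, which had no position. Each is written 5′ to 3′ in the direction of transcription of its gene. Capitals mark the GATA site, which reads AGATAA or AGATAG or TGATAA or TGATAG on either strand, and in the promoters also the octamer ATGCAAAT, the sequence read by POU-domain factors. TTATCT and CTATCT are AGATAA and AGATAG on the opposite strand. The promoters are the 250 bases before the RefSeq start (GRCh38.p14), and the other windows are 200 bases of hg38 around the shared region or the single position.
CDX2 promoter, chr13:27969316-27969565, minus strand: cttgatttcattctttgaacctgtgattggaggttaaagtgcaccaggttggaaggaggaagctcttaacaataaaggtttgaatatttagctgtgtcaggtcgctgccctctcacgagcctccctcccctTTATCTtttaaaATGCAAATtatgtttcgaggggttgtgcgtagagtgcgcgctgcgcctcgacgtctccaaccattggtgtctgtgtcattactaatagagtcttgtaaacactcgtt
CDX2 upstream region in URAD, chr13:27978748-27978947, minus strand: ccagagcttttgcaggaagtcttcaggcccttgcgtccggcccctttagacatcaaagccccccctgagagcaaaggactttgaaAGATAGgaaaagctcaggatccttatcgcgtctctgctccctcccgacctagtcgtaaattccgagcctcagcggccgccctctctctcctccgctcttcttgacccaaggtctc
CDX2 intron 1 at the replicate 2 position, chr13:27966039-27966238, minus strand: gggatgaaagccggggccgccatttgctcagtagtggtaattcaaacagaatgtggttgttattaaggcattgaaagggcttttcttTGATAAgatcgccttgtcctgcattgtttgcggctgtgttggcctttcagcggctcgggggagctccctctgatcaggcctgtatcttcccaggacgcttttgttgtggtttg
CDX2 intron 1 at the replicate 1 position, chr13:27966325-27966524, minus strand: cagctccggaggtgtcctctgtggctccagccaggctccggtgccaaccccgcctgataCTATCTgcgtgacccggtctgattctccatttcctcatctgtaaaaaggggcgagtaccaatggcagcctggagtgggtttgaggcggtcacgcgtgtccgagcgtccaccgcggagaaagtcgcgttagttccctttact
CDX4 promoter, chrX:73446803-73447052, plus strand: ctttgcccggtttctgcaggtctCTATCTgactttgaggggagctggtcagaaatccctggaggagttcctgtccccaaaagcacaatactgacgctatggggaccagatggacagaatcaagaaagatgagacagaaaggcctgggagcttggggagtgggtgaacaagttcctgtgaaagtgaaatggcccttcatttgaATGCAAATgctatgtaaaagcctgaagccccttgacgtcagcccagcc

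CDX2 (ENSG00000165556.10, chr13:27960918-27969315, minus strand) had 4 positions in replicate 1 and 3 in replicate 2. Distances are given from the 5′ end of the gene, with negative values upstream. Immediately before the gene, replicate 1 listed position 27969436.5, at -121.5 bp, and replicate 2 listed 27969418, at -103 bp. The positions were 18.5 bp apart and formed a shared region centred at -0.112 kb, in the promoter and outside the transcribed sequence. Of all shared replicate 1 positions in the genome, 41.0% had a partner at this distance or nearer.

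The second shared region of CDX2 lay upstream, in intron 1 of URAD, a neighbouring gene that encodes an enzyme of urate breakdown. Replicate 1 listed 27978864, at -9.55 kb, and replicate 2 listed 27978833, at -9.52 kb. They were 31 bp apart, a separation that 62.0% of shared replicate 1 positions did not exceed. The positions were 412 and 381 bp from the nearest exon edge of URAD. The centre of the region was 9.84 kb downstream of the 5′ end of URAD and at -9.53 kb from that of CDX2, so CDX2 was the protein-coding gene with the nearest start, by a narrow margin. The authors' lists also carried the name CDX2 at both positions.

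Each replicate also had a position inside CDX2, in intron 1, but the positions did not coincide. Replicate 1 listed 27966425, at +2.89 kb, and replicate 2 listed 27966139, at +3.18 kb. The separation of 286 bp exceeded the limit of 100 bp, and the pair was not counted as shared. Without peak widths, whether the peaks of this pair overlapped could not be told. Across the genome 1272 replicate 1 positions, or 6.89%, had their nearest replicate 2 position at more than 100 and at most 500 bp, and 8039, or 43.6%, had none within 500 bp.

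The fourth position of replicate 1, 28050444 at -81.1 kb, was inside intron 5 of FLT3, a receptor tyrosine kinase gene of blood progenitors. It had no counterpart within 71611 bp in replicate 2. The nearest protein-coding start was that of FLT3 itself, 50148 bp away, and the lists named the position KATNBL1P1 and not CDX2. The next shared region upstream lay beyond FLT3, at -40.2 kb from its start, and was outside the distance limit of CDX2. In the deposited lists 3 positions of each replicate were named CDX2, which 529 of 13290 distinct names, or 3.98%, equalled or exceeded.

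**Figure D1:**
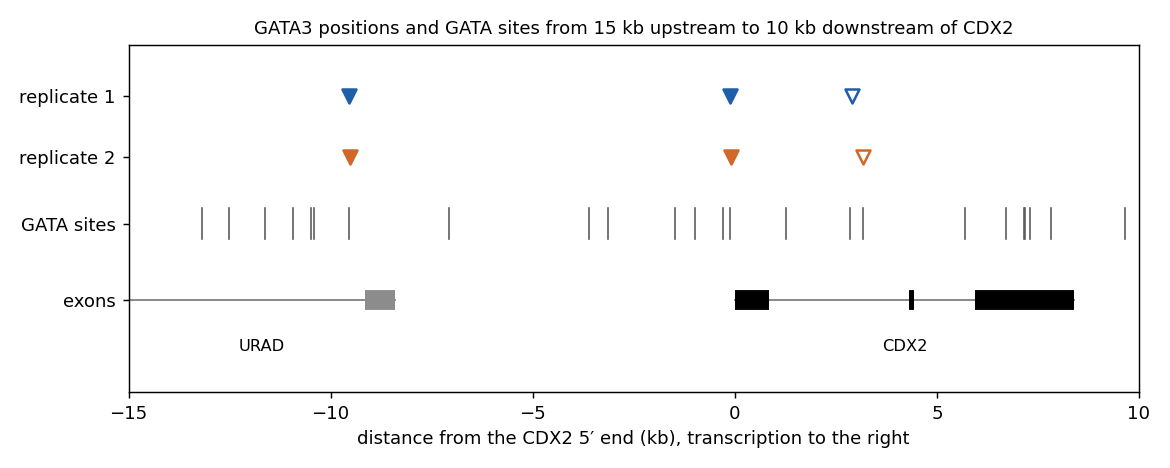
Positions of GATA3 ChIP replicates 1 and 2 near CDX2 against the distance from its 5′ end (kb, transcription to the right), with exons and GATA sites. Filled points mark the shared positions in the promoter and at -9.5 kb, and open points mark the pair in intron 1, which was 286 bp apart.

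CDX1 (ENSG00000113722.18, chr5:150166778-150184558, plus strand) had 1 position in each replicate and no shared region. The replicate 1 position, 150154853, was at -11.9 kb, in intron 1 of PDGFRB, a receptor for platelet-derived growth factor. It lay 1019 bp inside PDGFRB from that gene's start, far nearer to it than to CDX1. The replicate 2 position, 150110035, was at -56.7 kb, inside the body of CSF1R, the receptor of a macrophage growth factor, and 3337 bp from the start of that gene. The lists named the positions PDGFRB and CSF1R, and neither carried the name CDX1. The positions were 44818 bp apart, and the nearest shared region was at +298 kb. The neighbouring genes had no shared region either: SLC6A7, a transporter gene, had the same single positions as CDX1 within reach, and CAMK2A, a kinase gene, had none.

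CDX4 (ENSG00000131264.4, chrX:73447053-73455171, plus strand) had no position of either replicate in its body or within 100 kb. The nearest shared region lay just past that limit, at +109 kb, where the replicates listed 73556426 and 73556432, 6 bp apart. It was in the pseudogene MAP2K4P1, whose name the lists gave, and the positions were at -6771 and -6765 bp from the 5′ end of CHIC1. At this locus the result depended on the distance chosen, since a limit of 200 kb assigned this region to CDX4.

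**Figure D2:**
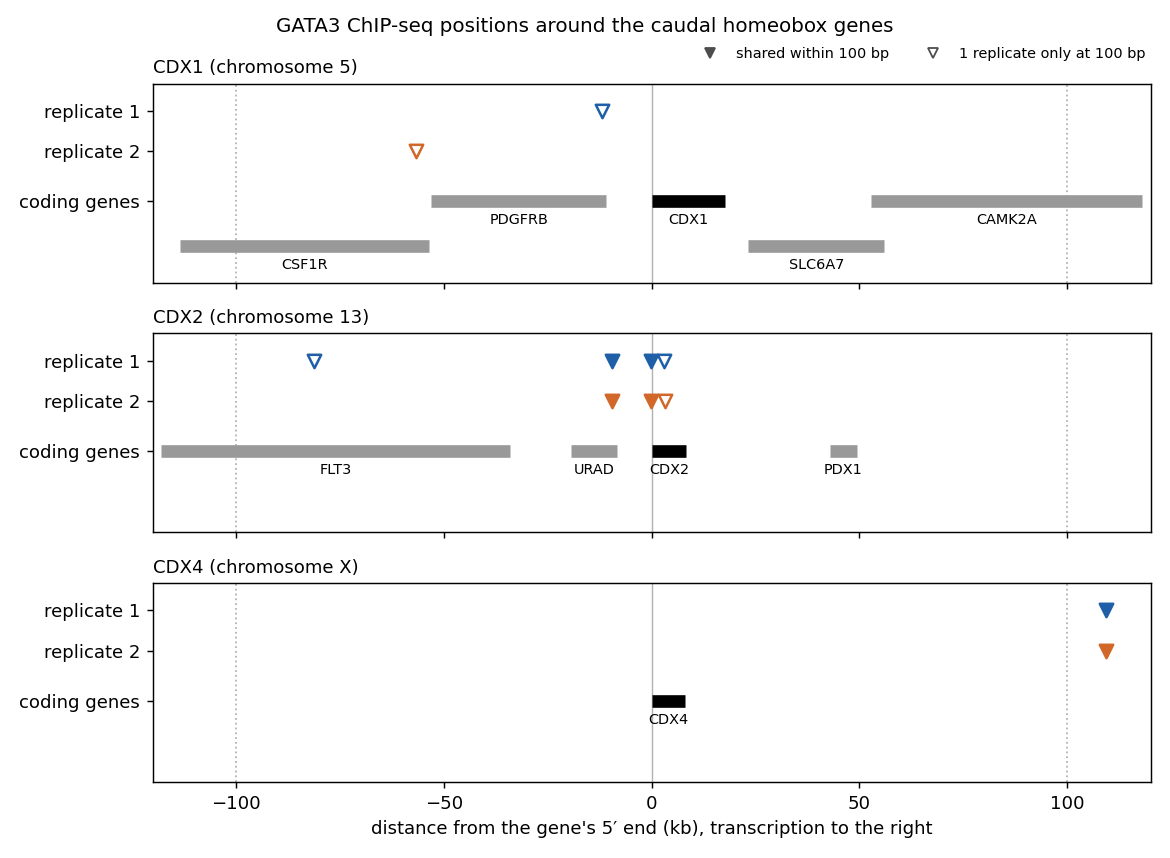
Positions of GATA3 ChIP replicates 1 and 2 within 100 kb of the 5′ ends of CDX1, CDX2 and CDX4, and the nearest pair of CDX4. The axis spans 120 kb either side (distance in kb, transcription to the right). Protein-coding genes are drawn if they reach within 100 kb of the 5′ end, so CHIC1 is not drawn. Filled points are shared within 100 bp; they occur at the CDX2 promoter, at -9.5 kb of CDX2 and, outside the 100 kb limit, at +109 kb of CDX4.

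The distribution over genes placed each member among the others. Of all protein-coding genes, 68.5% had a replicate 1 position within 100 kb or in the body, 57.2% had one of replicate 2, and 47.5% had at least 1 shared region. CDX2 was among the 17.1% with at least 2 shared regions. Exactly 2 were held by 11.3%, so the number of regions at CDX2 was not extreme. CDX1 was in the smaller class with positions of both replicates and no shared region, which held 5.80% of genes. CDX4 was among the 27.6% with no position of either replicate.

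The closeness of the regions to the start was less usual than their number. A shared region within 1 kb of the 5′ end was found at 2.42% of protein-coding genes, or 484. A further shared region within 10 kb was present at 49 genes, or 0.245%, of which CDX2 was 1. These distances of 1 and 10 kb were chosen after the CDX2 positions were known, so the shares are descriptions. Chromosomes also differed: 50.9% of coding genes on chromosome 5, 51.7% on chromosome 13 and 27.0% on the X chromosome had a shared region, and the part of the chromosome in the absence of positions at CDX4 was not tested.

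**Figure D3:**
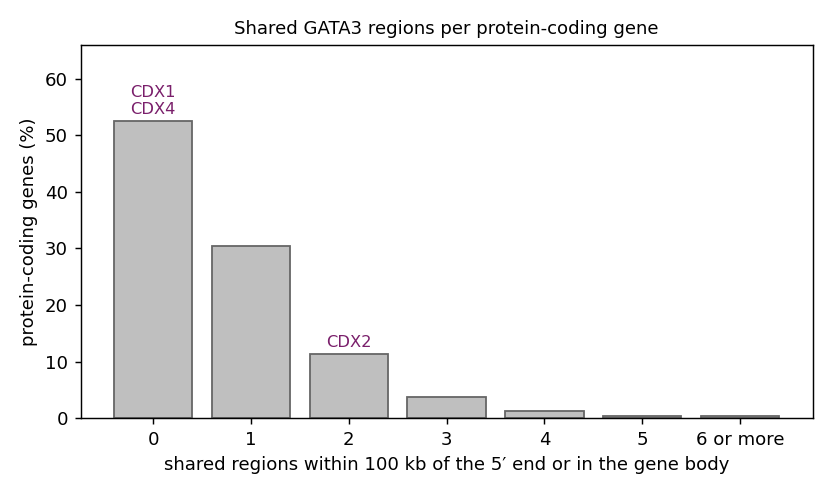
Share of 20033 protein-coding genes (percent) by the number of shared GATA3 regions within 100 kb of the 5′ end or in the gene body. CDX1 and CDX4 were in the class with 0 regions, which held 52.5% of genes, and CDX2 in the class with 2, which held 11.3%.

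The shared share of the positions at the caudal genes could be stated only with wide intervals. In replicate 1, 2 of 5 positions were shared (40%, 95% exact binomial interval 5.27 to 85.3), against 49.6% of all positions. In replicate 2 it was 2 of 4 (50%, 6.76 to 93.2), against 71.5%. With the replicates together the share was 4 of 9 (44.4%), against 58.6%, and no interval is given because the 4 positions are 2 linked pairs. The genome-wide shares of each replicate were inside its interval, which covers counting error only, and no difference was detectable with so few positions.

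**Figure D4:**
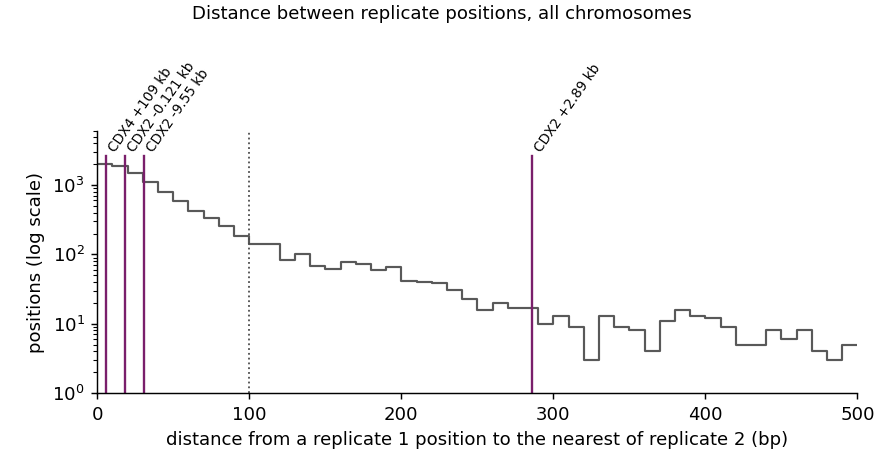
Number of replicate 1 positions (log scale) by distance to the nearest replicate 2 position (bp), on all 24 chromosomes. Purple lines mark CDX2 pairs at 18.5, 31 and 286 bp and the CDX4 pair at 6 bp; the dotted line is the limit of 100 bp.

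Both shared regions of CDX2 held 1 GATA site in the 200 bases around their centre, and in each the site lay between the replicate positions. In the promoter it was AGATAA at chr13:27969429-27969434, centred 4.25 bp from the centre of the region. At -9.53 kb it was AGATAG at chr13:27978857-27978862, 11 bp from the centre. Across all shared regions 82.0% held at least 1 GATA site and 34.6% held more than 1. A site at 4.25 bp or nearer was present in 11.6% of shared regions, and one at 11 bp or nearer in 28.2%. AGATAA itself was in 51.6%.

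The unshared intron 1 positions of CDX2 each had a GATA site of their own. At the replicate 2 position it was TGATAA at chr13:27966146-27966151, 9.5 bp from the position. At the replicate 1 position it was AGATAG at chr13:27966460-27966465, 37.5 bp away. The single position in FLT3 had a site 96.5 bp away, at the edge of the window. Neither CDX1 position had a GATA site within the window, nor did the shared region at +109 kb of CDX4. In a wider window of 300 bp the CDX4 region held 1 GATA site, an AGATAA, and the CDX1 positions still held none. Of unshared positions in the genome, 73.0% in replicate 1 and 67.0% in replicate 2 held one.

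GATA sites without a listed position were far more frequent than sites with one. Within 100 kb either side of the 5′ end, CDX1 had 314 sites, or 1.57 per kb, CDX2 had 369, or 1.84 per kb, and CDX4 had 531, or 2.65 per kb. The GC content of these stretches fell in the same order, from 51.9% at CDX1 to 44.5% at CDX2 and 38.8% at CDX4. CDX4 thus had the densest sites and no position, while at CDX2 5 of 369 sites, or 1.36%, lay within 100 bp of a position. From 15 kb before to 10 kb after the start of CDX2 there were 24 sites, of which 4 lay within 100 bp of a position.

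The promoter site of CDX2 was accompanied by the octamer ATGCAAAT, at chr13:27969415-27969422, with 6 bases between the motifs. In the sequence above they read TTATCTtttaaaATGCAAAT. The octamer was in 5.07% of shared regions in the 200 bp window, and in 1.77% together with a GATA site at most 20 bp away. In a window of 300 bp it was in 6.42% of shared regions, against 1.77% of 35116 RefSeq promoters of 300 bases. These sets differ in base composition, which was not adjusted for: GGGCGG was in 7.51% of these shared regions and 45.0% of the promoters. The CDX4 promoter also had an octamer, at base -44.5, with its upstream GATA site at -224.5, and no GATA3 position. The window at +109 kb of CDX4 had an octamer as well, 65.5 bp from its centre. RefSeq promoters matched 2 of the 3 genes, CDX2 and CDX4, and CDX1 had no entry.

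LEF/TCF letters, CTTTGAA or CTTTGAT, stood beside the GATA site in other CDX2 windows. LEF1 and the TCF proteins are the DNA-binding factors of the WNT pathway. At -9.53 kb CTTTGAA adjoined AGATAG directly, as ctttgaaAGATAG, and CTTTGAT lay 27 bases away on the other strand. At the replicate 2 position in intron 1 the letters CTTTGAT overlapped TGATAA by 4 bases, so that the matches are not independent. Of all shared regions 11.8% held these letters, and 4.66% held them within 20 bp of a GATA site. The promoter had CTTTGAA further upstream, at base -235, outside the window of its shared region. Searches covered both strands for 15 motifs, and the pairings with the GATA site were picked after the windows had been read, so that no test was made.

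**Figure D5:**
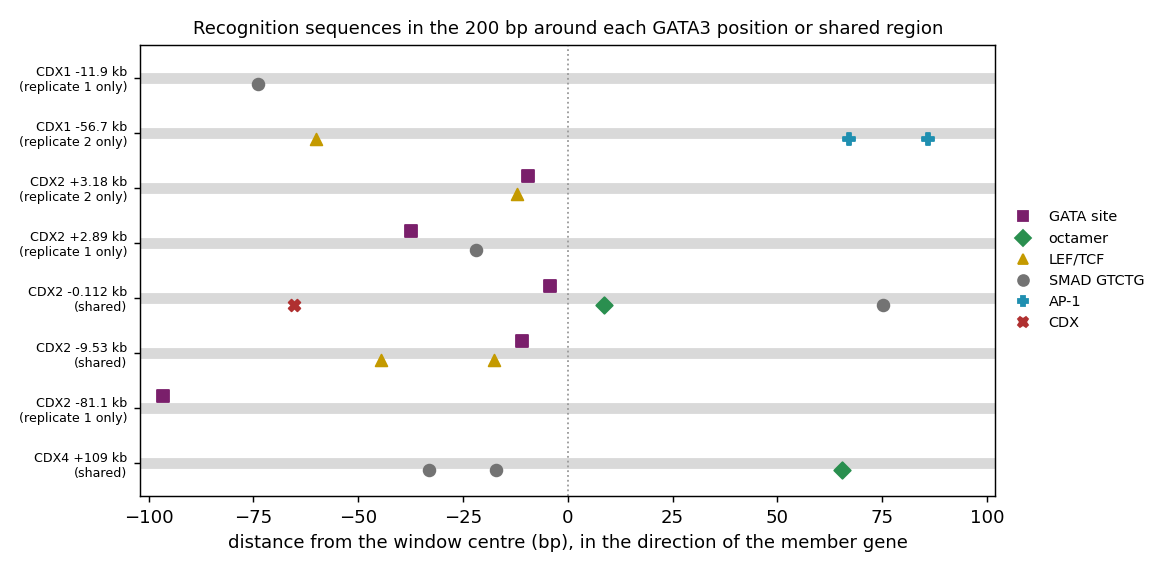
Motif matches in 200 bp windows around GATA3 positions near CDX1, CDX2 and CDX4, against the distance from the window centre (bp, gene strand). In 4 CDX2 windows the GATA site is within 37.5 bp of the centre, and the windows of CDX1 and CDX4 have none.

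The CDX2 windows were rich in CpG. The ratio of observed to expected CpG was 0.799 in the promoter region, 0.671 at -9.53 kb, and 0.848 and 0.569 at the intron 1 positions of replicates 1 and 2. The median of all shared regions was 0.168, and 97.2% and 95.1% of them were below the promoter and the -9.53 kb region. Shared regions within 1 kb of a coding start had a median of 0.565, which all 4 CDX2 windows exceeded. GC content was 47.5% in the promoter region and 56.5% at -9.53 kb, against a median of 44% over shared regions. The median within 1 kb of a coding start was 53.5%, above the CDX2 promoter region and below the -9.53 kb region. The FLT3 position differed from these, with a GC content of 35% and a CpG ratio of 0.175.

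Of the ParaHox genes, PDX1 shared the regions of CDX2. PDX1, a homeobox gene of pancreas and duodenum, had 3 positions in each replicate and 2 shared regions within 100 kb, and these were the CDX2 promoter and the -9.53 kb region. The nearer was 49.4 kb from the start of PDX1. GSX1, a homeobox gene of the developing brain, had no position, and its nearest shared region, at 177 kb, was also the CDX2 promoter. GSX2, on another chromosome, had 1 shared region, at -83.9 kb. A shared region was thus assigned to 2 of these 3 genes, against 47.5% of all coding genes. None had one within 10 kb, against 8.69%, and 3 genes are too few for a comparison. The assignment of the chromosome 13 regions to CDX2 or PDX1 followed from distance only.

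Genes known to act upstream of the caudal genes were described from a list of 23 WNT, FGF, retinoic acid and transcription factor genes. Shared regions were assigned to 15 (65.2%), against 47.5% of all coding genes, with a median of 1 region against 0. A region within 10 kb was found at 5 of the 23, against 8.69% of all coding genes, and no test was made. They were TFAP2A (7 regions, nearest at -0.122 kb), GATA3 (6, at 1.14 kb), TEAD4 (2, at -1.05 kb), GATA2 (9, at -2.37 kb) and TCF7L2 (4, at 4.98 kb). TFAP2A, GATA2 and GATA3 encode factors of trophoblast and early ectoderm, TEAD4 the DNA-binding partner of YAP1 that activates CDX2 in trophectoderm, and TCF7L2 a WNT effector. TFAP2A was the single gene of the 23 with a region within 1 kb of its start, against 2.42% of all coding genes. RARB, a retinoic acid receptor gene, had 6 regions, the nearest at -62.7 kb. The counts of every list include the whole gene body, so they can rise with gene length, which was not adjusted for. The 8 genes without a region were WNT3A, TCF7, CTNNB1, FGF8, RARA, TBXT, TFAP2C and HNF4A.

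Genes known as targets of caudal factors, 28 in all, had shared regions in 20 cases (71.4%), against 47.5% of all coding genes, and the median was 1 region against 0. A region within 10 kb was found at 5 of the 28, against 8.69% of all coding genes. Neighbouring genes share regions, and the 20 genes rested on 16 distinct ones. When each region went only to its nearest start, 8 of the 28 had one, against 25.2% of all coding genes. No test was made. The 10 HOX genes of the list lie in the HOXA, HOXB and HOXC clusters, where neighbours can share regions, so they are not 10 separate results. Each HOXA gene had 2 regions and each HOXB and HOXC gene had 1, against 47.5% of all coding genes with at least 1. HOXB5 alone among them had one within 10 kb, at 4.27 kb. The simple-epithelium keratins KRT8 and KRT18 had the same 2 regions, nearest at 4.29 and -3.20 kb. HNF4G, a nuclear receptor of the gut, and TFF3, a secreted peptide of goblet cells, had 1 each, at -2.83 and 5.60 kb. No gene of this list had a shared region within 1 kb, where 2.42% of all coding genes had one, so 28 genes are too few to tell a difference. The intestinal genes SI, MUC2, VIL1 and KRT20 had no position in either replicate, as did 27.6% of all coding genes.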

How the data were processed

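GATA3 ChIP-seq peak lists of 2 replicates were analysed. Per the study's methods, the authors trimmed reads with cutadapt, aligned them with Bowtie (hg38), discarded duplicates using Picard and called peaks with MACS2 (q threshold 0.05) in each replicate against its input. The deposited values were 1 base position per peak with a gene name. How a peak was reduced to 1 position, and whether bases count from 0 or 1, was not given in the sources used here, so positions are printed as deposited. The lists had 18538 and 12865 distinct positions, of which 18456 and 12782 were on the 24 chromosomes. The number of entries differs in both replicates from the number of peaks stated in the study's methods, and the reason was not given in the sources used here, so the shared shares describe the deposited lists. Input signal and reads were not analysed here, and the lists carry no depth.

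Positions within 100 bp were linked across replicates and centred on the mean of the replicate positions. Genes were protein-coding genes of GENCODE release 44. Motifs were counted on both strands in 200 bp windows of hg38. The linking, assignment and motif counts were tested on simulated data. Intervals are 95% exact (Clopper-Pearson). No test compared groups. Python 3.11.15, numpy 2.4.6, scipy 1.17.1 and matplotlib 3.10.9 were used. The members and gene lists were chosen with earlier results of these data known. Genes named are the members, protein-coding neighbours within 100 kb, the ParaHox genes, and list genes with a shared region within 10 kb or among the 3 with most regions of a list (not used for the target list, where 8 genes tied at 2). List genes without a region or position, and the HOX genes, were named after their values were seen. Alternatives were other linking distances, gene distances, motif windows and letters, assignment to the nearest start, and each replicate alone.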

Additional observations from a re-analysis of the deposited data

How the results depend on the processing

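Across the linking distances tried, CDX2 kept both regions, and at 500 bp the intron 1 pair was linked as well, giving 3. The count over the caudal genes was 4 at a gene distance of 200 kb, and 4 to 5 when each replicate was used alone. The share of coding genes with a region was 41.3, 50.2 and 50.7% at linking distances of 50, 250 and 500 bp, 32.3 and 68.3% at gene distances of 50 and 200 kb, and 25.2% by the nearest start. It was 57.2 to 68.5% with 1 replicate alone. With AGATAA in place of all GATA sites, 1 of the 2 CDX2 regions held a site. Of the ParaHox genes 1 had a region at a linking distance of 50 bp or a gene distance of 50 kb, and 0 by the nearest start. Of the 28 target genes 13 had a region within 50 kb, where 32.3% of all coding genes had one. By the nearest start it was 8 of the 28, against 25.2%. No paired analysis was possible because no test compared groups. Single positions limit these data, since the lists carry no depth, q-value or measure of peak strength.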
